A study of Mus musculus with 5 samples.

Results

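The Id, Hes and E protein genes encode the helix-loop-helix partners and inhibitors that set how far a tissue-specific basic helix-loop-helix (bHLH) factor can act. They were described here in B16F10 cells, a pigmented mouse melanoma line, that had been pushed towards other fates. The 10 genes were chosen by their family, by symbol, with their FPKM in these libraries already known, so their values are a description and carry no test. They are Id1, Id2, Id3, Id4, Hes1, Hes6, Hey1, Tcf3, Tcf4 and Tcf12, of 54699 genes in the deposited table. Levels are FPKM, reads relative to gene length and to library size. A gene entered the comparisons once any library put it at an FPKM of 1 or more, which 12842 genes met, 8 of the 10 among them. Id4 and Hey1 did not.

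RNA was sequenced in 5 libraries, 1 for each group. Every group received a lentivirus and was kept in DMEM with fetal bovine serum. One virus forced expression of mouse Myod1, the master regulator of skeletal muscle (Myod1 cells), another that of mouse Pparg, the nuclear receptor that drives fat cell formation (Pparg cells), and their common control was the empty expression vector, all harvested on day 8. A further virus carried a short hairpin RNA against Setdb1, a histone H3 lysine 9 methyltransferase (Setdb1 knockdown cells), and its control was the empty knockdown vector (shCtrl), both harvested on day 7. The labels give the genotype of both control groups as wild type. The promoter that drives each transgene, and whether cells were pooled or cloned, is not given in the sources used here. With 1 library a group, no difference below has a replicate check. The Myod1 and Pparg groups share their control, so their ratios are given side by side only.

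As background, E proteins (Tcf3, Tcf4 and Tcf12) are broadly expressed class I bHLH factors that bind the E-box, CANNTG, as homodimers or as partners of class II factors such as Myod1 and Myog. Id proteins have the helix-loop-helix but no basic region, so a dimer of Id and E protein cannot bind DNA, and Id proteins are classic inhibitors of muscle differentiation and targets of BMP and Smad signalling. Hes1 and Hey1 are repressors induced by Notch, and Hes1 recruits Groucho (Tle) corepressors. Hes6 is an atypical relative that opposes Hes1 and is known from differentiating muscle and neurons.

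The libraries held 16214802 to 18300670 reads assigned to genes. All 9 melanocyte markers examined (Mitf, Sox10, Tyr, Tyrp1, Dct, Pmel, Mlana, Slc45a2 and Oca2) had an FPKM of at least 1 in all 5 libraries. Their summed FPKM was 3317 in Myod1 cells and 2310 in Pparg cells against 7824 in the empty expression vector control, and 9129 in Setdb1 knockdown cells against 8555 in the empty knockdown vector control. In the latter pair 5 of the 9 were lower with the hairpin, among them Mitf (13.7 against 41.6) and Slc45a2 (113 against 321). The other 4 were higher, among them Pmel (4347 against 2993) and Oca2 (31.1 against 13.2). The part of these levels in the results below was not tested. The 8 muscle markers summed to 32988 in Myod1 cells and to 10.9 to 32.4 elsewhere, and the 8 adipocyte markers to 319.9 in Pparg cells and to 0.726 to 2.72 elsewhere. Fabp4 (153.5) and Cd36 (146.2) gave most of the adipocyte sum, and Adipoq (0.0756), Cidec (0.253) and Lep (0) stayed under 1 in Pparg cells. Of the markers of other cells, 8 leukocyte genes summed to 2.96 to 21.3, of which Cd68 alone gave 1.87 to 18.7, with Ptprc at 0.00590 or less and Cd3e at 0. Endothelial, fibroblast and epithelial lists summed to at most 1.64, 2.52 and 0.473. In bulk RNA, fewer cells of a type and less RNA per cell cannot be told apart. Myod1 had an FPKM of 260.1 and Pparg of 44.4 in their own libraries and 0 in the other 4, and Setdb1 had 0.867 with the hairpin against 9.82 in its control.

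Id3 was the member that was higher in all 3 treated libraries by a wide margin. Id3 (ENSMUSG00000007872, chromosome 4, 136143497 to 136145755, GRCm38) had an FPKM of 55.5 in Myod1 cells, 34.7 in Pparg cells and 2.15 in the empty expression vector control. It had 28.3 in Setdb1 knockdown cells and 2.44 in the empty knockdown vector control. The 2 controls differed by less than counting error (95% intervals 1.65 to 2.75 and 1.91 to 3.06), and the 3 treated libraries lay far above both. Its ratio to the control was 25.8 (counting interval 20.03 to 33.7) in Myod1 cells, 16.1 (12.5 to 21.1) in Pparg cells and 11.6 (9.13 to 14.9) in Setdb1 knockdown cells. These intervals, exact Clopper-Pearson on reads, cover counting error only. On the log2(FPKM + 1) scale, which understates low genes, the differences were 4.16, 3.50 and 3.09. Ranked among the 12842 genes by that difference, Id3 stood 139th from the top in Myod1 cells, 14th in Pparg cells and 12th in Setdb1 knockdown cells.

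Id1 (ENSMUSG00000042745, chromosome 2, 152736251 to 152737410) was a low gene in the controls, with an FPKM of 0.792 from 15 reads under the empty expression vector and 1.03 from 20 reads under the empty knockdown vector. It reached 14.9 from 272 reads in Myod1 cells. It had 2.83 from 63 reads in Pparg cells and 2.33 from 50 reads in Setdb1 knockdown cells, and the intervals of those last 2 libraries overlapped (2.18 to 3.63 and 1.73 to 3.07). Id1 was thus highest in the Myod1 library, with the other treated libraries between it and the controls. Its ratio to the control was 18.8 (interval 11.2 to 34.1), 3.58 (2.01 to 6.77) and 2.26 (1.32 to 4.01) in Myod1, Pparg and Setdb1 knockdown cells, or 3.15, 1.10 and 0.71 on the log2 scale. Against the other control (2.83 against 1.03) the Pparg difference was 0.92 on the log2(FPKM + 1) scale, short of the limit on that scale only. With a pseudocount of 0.1 the Setdb1 difference was 1.10, past 2-fold.

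Id2 (ENSMUSG00000020644, chromosome 12, 25093799 to 25097140) was the most abundant Id gene in both controls and differed between them. Its FPKM was 12.5 in the empty expression vector control and 27.96 in the empty knockdown vector control, a ratio of 2.24 (interval 2.02 to 2.49), which ranked 108th of the 12842 genes between the controls. It was 43.95 in Myod1 cells, 9.52 in Pparg cells and 54.4 in Setdb1 knockdown cells. Against its own control Id2 was 3.52-fold higher in Myod1 cells (log2 difference 1.74) and 1.95-fold higher in Setdb1 knockdown cells (0.94). In Pparg cells it was lower, at 0.763 of the control (-0.36). The choice of control moved all of these: against the other control the differences were 0.63, 2.04 and -1.46. Removing the trend with GC content brought the Setdb1 difference to 1.20. Id2 was higher than both controls in the Myod1 and Setdb1 libraries and lower than both in the Pparg library, the one Id gene to be lower there.

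Id4 (ENSMUSG00000021379, chromosome 13, 48261228 to 48266026) had 0 reads in all 5 libraries, which allows an FPKM of at most 0.0496 for 3 reads in the Myod1 library, the least sensitive for this gene. The 2 genes that overlap it on the opposite strand had 0 reads as well.

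**Figure D1:**
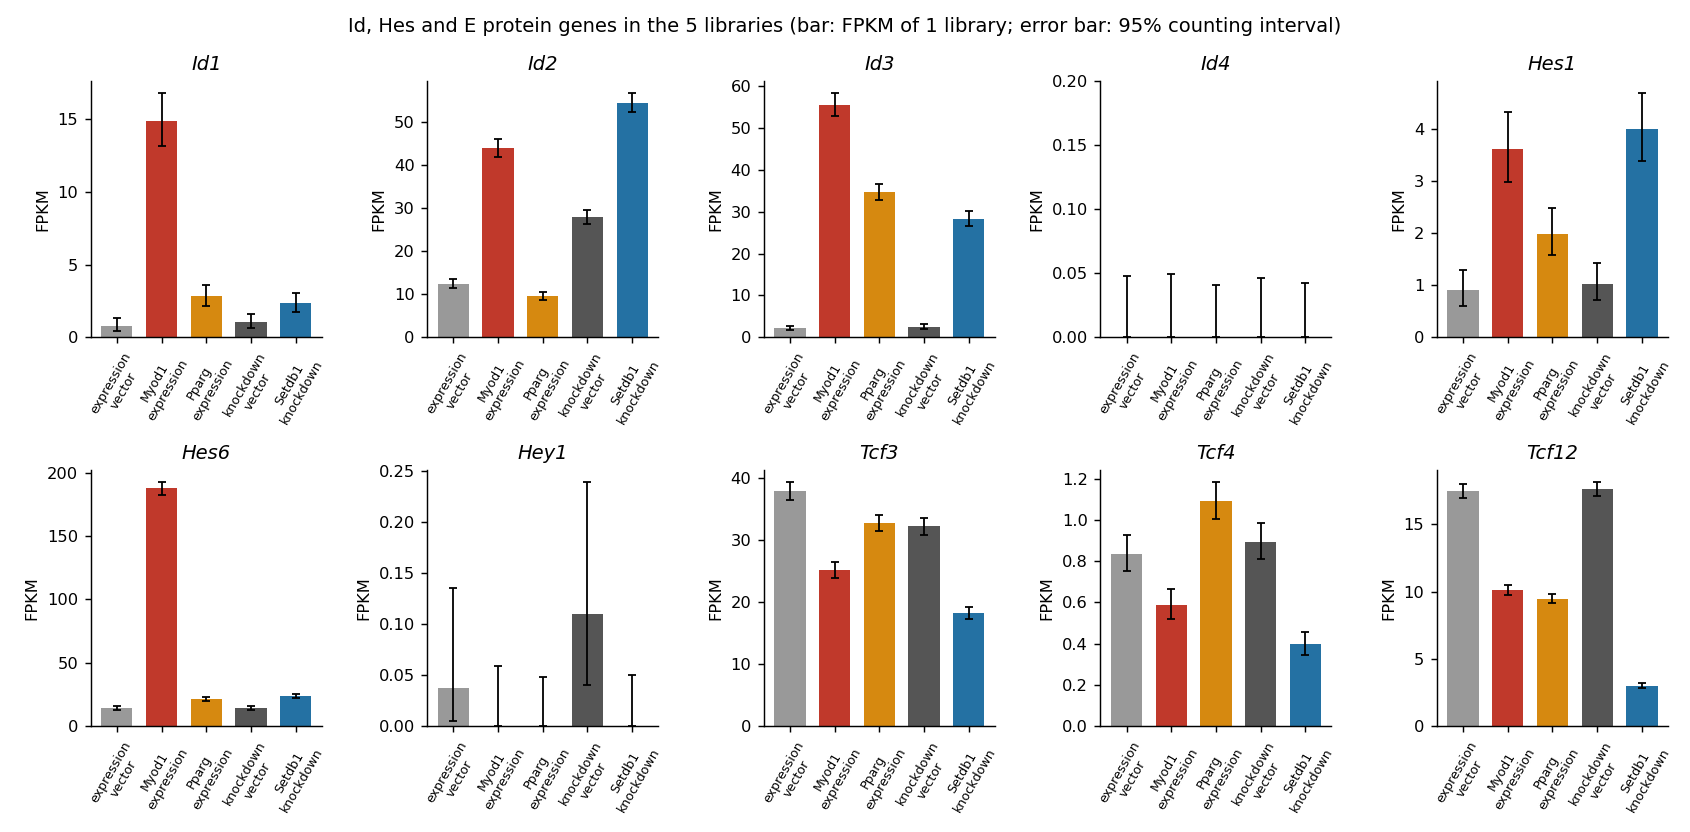
FPKM of the 10 genes (panels, each with its own axis) in the 5 libraries, with 95% counting intervals, or the level of 3 reads where none was seen. Id3 stood above both controls in every treated library, Hes6 in the Myod1 library above all others, and Tcf12 was lowest, at an FPKM of 2.996, in Setdb1 knockdown cells.

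Of the Hes genes, Hes6 had the highest level of any member, in the Myod1 library. Hes6 (ENSMUSG00000067071, chromosome 1, 91411483 to 91414038) had an FPKM of 187.7 in Myod1 cells, 21.3 in Pparg cells and 14.3 in the empty expression vector control. It had 23.9 in Setdb1 knockdown cells and 14.3 in the empty knockdown vector control. The controls had overlapping intervals (12.9 to 15.7 in both), and all 3 treated libraries lay above them. Hes6 was 13.2-fold higher in Myod1 cells (interval 11.9 to 14.6, log2 difference 3.63), where the 8 muscle markers were high too. Their part in the Hes6 level was not tested. It was 1.49-fold higher in Pparg cells (1.32 to 1.69) and 1.67-fold higher in Setdb1 knockdown cells (1.49 to 1.89), both under the 2-fold limit. With the GC trend removed the Setdb1 log2 difference of Hes6 was 0.21 in place of 0.70.

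Because Myod1 and its E protein partners bind the E-box, the 250 bases before each of the 2 Hes6 start sites in RefSeq (GRCm38.p6) are shown, 5′ to 3′ on the minus strand, with matches to CANNTG in capitals. They span chr1:91414039-91414288 for the upstream start and chr1:91413223-91413472 for the downstream start. None of these bases is in an exon of GENCODE M21. The upstream window lies before the gene as M21 gives it, and the downstream window inside it, between exons.
Hes6, upstream start: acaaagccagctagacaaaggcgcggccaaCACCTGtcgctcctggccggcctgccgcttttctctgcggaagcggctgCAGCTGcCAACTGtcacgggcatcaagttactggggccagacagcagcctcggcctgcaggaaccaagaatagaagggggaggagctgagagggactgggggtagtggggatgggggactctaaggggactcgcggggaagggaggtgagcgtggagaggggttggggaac
Hes6, downstream start: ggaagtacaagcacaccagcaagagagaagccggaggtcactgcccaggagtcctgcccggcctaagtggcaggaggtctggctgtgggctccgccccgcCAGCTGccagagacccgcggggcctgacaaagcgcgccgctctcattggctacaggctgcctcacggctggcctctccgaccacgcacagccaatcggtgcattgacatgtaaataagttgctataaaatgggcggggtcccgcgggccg
The upstream window held 3 E-boxes and the downstream window 1. Of 32851 RefSeq windows of the same length, 66.2% held at least 1 E-box on either strand and 12.2% at least 3. The version CAGCTG stood once in each Hes6 window, and 4271 of the 32851 windows held it. The upstream window also held CACCTG, the reverse complement of CAGGTG, which 17.2% of windows held on either strand. Neither window held CACGTG (6.02% of windows), TGGGAA, the letters bound by the Notch effector Rbpj (21.6%), or GGCGCC, letters bound by Smad proteins (9.59%). The downstream window held 1 match to the N-box CACNAG (36.7%), which Hes repressors bind. The motifs here that begin with CA and end with TG are forms of the E-box and are counted among them. A match is a description of the letters and not a site of binding.

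RefSeq windows were present for 6 of the 10 genes, Id2, Id3, Id4, Hes6, Tcf3 and Tcf12. The 250 bases before the single RefSeq start of Id3 held no match to any of the 7 motifs searched, and all of them lie in M21 exons. Those of Id4, the silent Id gene, held no E-box and 1 match each to the N-box, TGGGAA and GGCGCC. The window of Id2 held 1 E-box and 1 GGCGCC, both in its first 89 bases, which lie inside the gene between M21 exons and are shown for comparison with Hes6, with the E-box in capitals (chr12:25096254-25096342, minus strand).
Id2: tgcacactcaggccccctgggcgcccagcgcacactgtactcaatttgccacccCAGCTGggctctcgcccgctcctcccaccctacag
The E-box of Id2 has the same letters as the one that both Hes6 windows hold. Tcf12 has 3 start sites in RefSeq, whose windows held 1, 1 and 0 E-boxes, and its most upstream window held those letters as well. The single window of Tcf3 held 1 E-box, of other letters. Whether these letters have a part in the levels of Hes6, Id2 or Tcf12 was not tested.

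Hes1 (ENSMUSG00000022528, chromosome 16, 30064384 to 30067796), the classic Notch-induced repressor, was low in both controls, at 0.902 from 30 reads under the empty expression vector and 1.03 from 35 reads under the empty knockdown vector. Its FPKM was 3.62 in Myod1 cells, 1.998 in Pparg cells and 4.01 in Setdb1 knockdown cells. The Myod1 and Setdb1 libraries overlapped in their intervals (2.99 to 4.34 and 3.39 to 4.698), and the Pparg library (1.58 to 2.49) lay between them and the controls. The ratios to the control were 4.02 (2.67 to 6.22) in Myod1 cells, 2.22 (1.44 to 3.50) in Pparg cells and 3.90 (2.68 to 5.80) in Setdb1 knockdown cells. On the log2(FPKM + 1) scale they were 1.28, 0.66 and 1.30, so the Pparg difference was short of the limit on that scale, and a pseudocount of 0.1 brought it to 1.07. Dividing each library by its FPKM sum brought the Myod1 difference to 0.999. Hey1 (ENSMUSG00000040289, chromosome 3, 8663359 to 8667256), a related Notch-induced repressor, had 2 and 6 reads in the expression and knockdown vector controls and 0 in every treated library. Against a floor of 3 reads for the Setdb1 knockdown library, 6 reads make Hey1 at least 2.21-fold lower, taking the 6 as they stand. The counting interval of the ratio runs from 0 to 0.767 of the control, so the data do not place it beyond 2-fold.

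Among the E protein genes, Tcf12 was lower in every treated library and lowest by far in Setdb1 knockdown cells. Tcf12 (ENSMUSG00000032228, chromosome 9, 71842688 to 72111871) encodes HEB. It had an FPKM of 10.1 in Myod1 cells, 9.46 in Pparg cells and 17.5 in the empty expression vector control, and 2.996 in Setdb1 knockdown cells against 17.6 in the empty knockdown vector control. The 2 controls had overlapping intervals (16.99 to 18.02 and 17.1 to 18.2). Tcf12 was 5.89-fold lower in Setdb1 knockdown cells, from 861 reads against 4580, a log2 difference of -2.22 that ranked 121st from the bottom of the 12842 genes. In Myod1 cells it stood at 0.578 of the control (0.550 to 0.607) and in Pparg cells at 0.541 (0.516 to 0.567), with log2 differences of -0.74 and -0.82 that did not reach 2-fold. Division by the FPKM sum brought the first to -1.09. Of the 11 genes that overlap Tcf12, 4 had 0 reads and the most read, the pseudogene Rpl15-ps2 on the opposite strand, had 13 to 30 reads a library.

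Tcf3 (ENSMUSG00000020167, chromosome 10, 80409514 to 80433647), which encodes E12 and E47, was the most abundant E protein gene per listed gene length in all 5 libraries. The authors list 4039 bases for Tcf3 and 15529 for Tcf12, whose longest coding transcripts in M21 have 2950 and 6299, and Tcf12 had more reads than Tcf3 in each library but that of Setdb1 knockdown cells. Its FPKM was 25.1 in Myod1 cells, 32.7 in Pparg cells and 37.8 in the empty expression vector control, and 18.2 in Setdb1 knockdown cells against 32.2 in the empty knockdown vector control. The controls differed beyond counting error (36.4 to 39.3 and 30.8 to 33.6), and the Pparg library overlapped the knockdown vector control. Tcf3 stood at 0.663 of the control in Myod1 cells, 0.865 in Pparg cells and 0.566 in Setdb1 knockdown cells, all under 2-fold (log2 differences -0.57, -0.20 and -0.79). Against the other control the Pparg difference was 0.02 and the Setdb1 difference -1.01, and with the GC trend removed the latter was -1.28. The Myod1 difference of Tcf3 ranged from -0.35 against the other control to -0.97 with the GC trend removed.

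Tcf4 (ENSMUSG00000053477, chromosome 18, 69343356 to 69689079), which encodes E2-2, was the lowest of the expressed E protein genes. Its FPKM was 0.588 in Myod1 cells, 1.09 in Pparg cells and 0.836 in the empty expression vector control, and 0.397 in Setdb1 knockdown cells against 0.895 in the empty knockdown vector control. The 253 reads or fewer in the Myod1 and Setdb1 libraries lay below both controls in level, and the 573 reads of the Pparg library above both. The Tcf4 ratio was 0.703 (0.597 to 0.827), 1.31 (1.14 to 1.49) and 0.443 (0.372 to 0.526) in Myod1, Pparg and Setdb1 knockdown cells. With the pseudocount of 1 the log2 differences were small, at -0.21, 0.19 and -0.44, and removing the trend with GC content turned the first and last to 0.09 and 0.07. With a pseudocount of 0.1 the Setdb1 difference of Tcf4 reached 2-fold. The gene length that the authors list for Tcf4 is 27382 bases, against 8577 for its longest coding transcript in M21, so its FPKM is low for its reads.

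The 8 compared genes were then counted against the background of all genes, on the log2(FPKM + 1) scale. By plain FPKM ratio, Hes1 in Pparg cells (2.22) and, in Setdb1 knockdown cells, Id1 (2.26) and Tcf4 (0.443) would also pass 2-fold. With Myod1 expression 5 of the 8 were at least 2-fold higher (Id1, Id2, Id3, Hes1 and Hes6) and 0 lower, where 14% of the 12842 genes were higher and 7.55% lower by that limit. With Pparg expression 2 were higher (Id1 and Id3) and 0 lower, with 4.22% and 2.3% of all genes. With Setdb1 knockdown 2 were higher (Id3 and Hes1) and 1 lower (Tcf12), with 9.34% and 10.3%. Between the controls Id2 was higher in the knockdown vector control, where 1.23% of all genes were higher and 1.44% lower. The members were chosen with these values known, so nothing is read from the counts. The median log2 difference of the 8 genes was 1.51, 0.37 and 0.71 in Myod1, Pparg and Setdb1 knockdown cells, beside 0.02, -0.02 and 0.00 over all genes, and 0.07 between the controls.

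**Figure D2:**
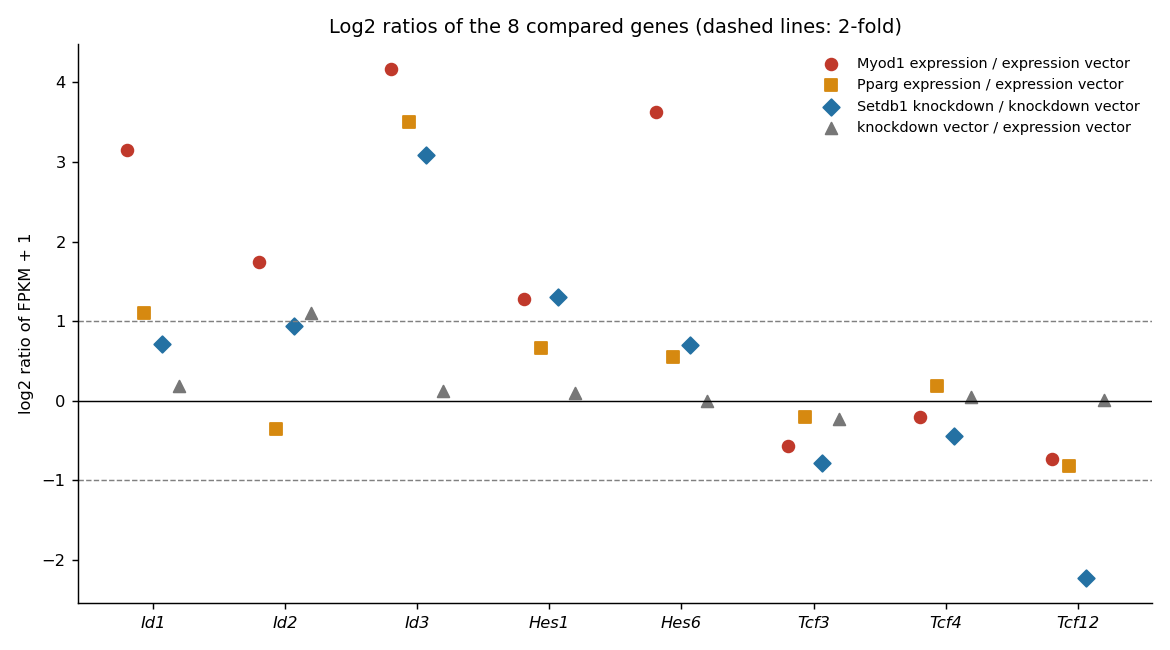
Log2 ratio of FPKM + 1 of the 8 compared genes in the 3 treatment comparisons and between the 2 controls, 1 point per comparison, with dashed lines at 2-fold. Id3 lay between 3.09 and 4.16 in all 3 treatment comparisons, Tcf12 at -2.22 in Setdb1 knockdown cells, and Id2 at 1.10 between the controls.

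Against both control libraries, 4 of the 5 genes higher in Myod1 cells kept a 2-fold difference, as did 1 of the 2 in Pparg cells and all 3 of the genes called in Setdb1 knockdown cells. The gene lost in Myod1 cells was Id2 and that lost in Pparg cells was Id1. Id3 and Hes6 were little moved by the control: Id3 differed by 4.04, 3.38 and 3.21 against the other control in Myod1, Pparg and Setdb1 knockdown cells, and Hes6 by 3.63 in Myod1 cells.

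**Figure D3:**
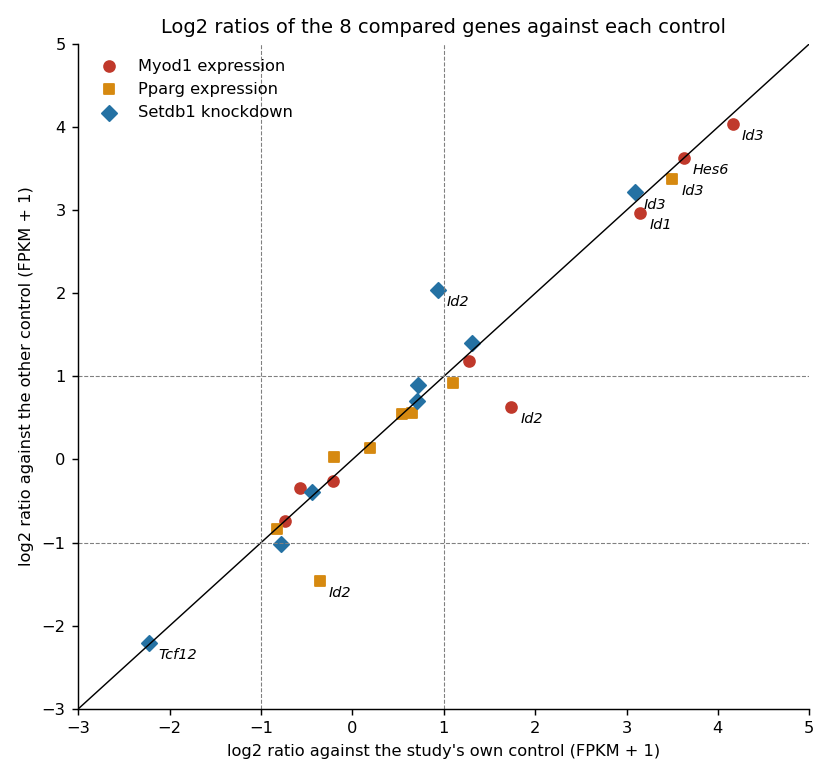
Log2 ratio of FPKM + 1 of the 8 compared genes against the study's own control (x axis) and against the other control (y axis), 1 point per gene and treatment, with the line of equal values and dashed lines at 2-fold. Id2 lies off the line in all 3 comparisons, by the 1.10 that separates the controls, and the other genes lie near it.

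Within each library the Id genes were set against the E protein genes, a ratio that no scaling between libraries can change. The summed FPKM of Id1 to Id4 was 15.4 in the empty expression vector control, 114.4 in Myod1 cells and 47.05 in Pparg cells, and 31.4 in the empty knockdown vector control and 85.03 in Setdb1 knockdown cells. The E protein sum was lower in each treated library, going from 56.2 in the empty expression vector control to 35.8 and 43.3, and from 50.7 in the empty knockdown vector control to 21.6. The Id sum was therefore 0.275 of the E protein sum in the empty expression vector control and 0.620 in the other control. It was 3.19 times the E protein sum in Myod1 cells, 1.09 times in Pparg cells and 3.93 times in Setdb1 knockdown cells. Relative to the control the ratio was 11.6-fold, 3.96-fold and 6.35-fold higher, where the controls themselves differed 2.26-fold.

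The level of this ratio depends on the lengths used, and the order of the libraries did not. In reads, without division by length, it was 0.0787 (interval 0.0721 to 0.0856) in the empty expression vector control, 0.172 (0.162 to 0.183) in the empty knockdown vector control, 0.287 (0.272 to 0.303) in Pparg cells, 0.815 (0.780 to 0.853) in Myod1 cells and 1.42 (1.35 to 1.497) in Setdb1 knockdown cells. None of these intervals overlapped another, and in reads the Id sum was the larger one in Setdb1 knockdown cells only. The Id genes behind the sum also shifted, in shares given per listed gene length. Id2 gave 80.9% and 88.96% of the Id sum in the expression and knockdown vector controls, where Id3 gave 13.96% and 7.75%. Id3 gave 73.7% in Pparg cells, 48.5% in Myod1 cells and 33.2% in Setdb1 knockdown cells. Id2 gave 20.2%, 38.4% and 64.0% there, and so was still the main Id gene after Setdb1 knockdown. In Myod1 cells the order of Id3 and Id2 rests on length, since Id2 had 1685 reads and Id3 1563. Per listed length, Tcf3 gave 67.4% and 63.5% of the E protein sum in the same 2 controls and 84.3% in Setdb1 knockdown cells, where Tcf12 gave 13.9%.

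**Figure D4:**
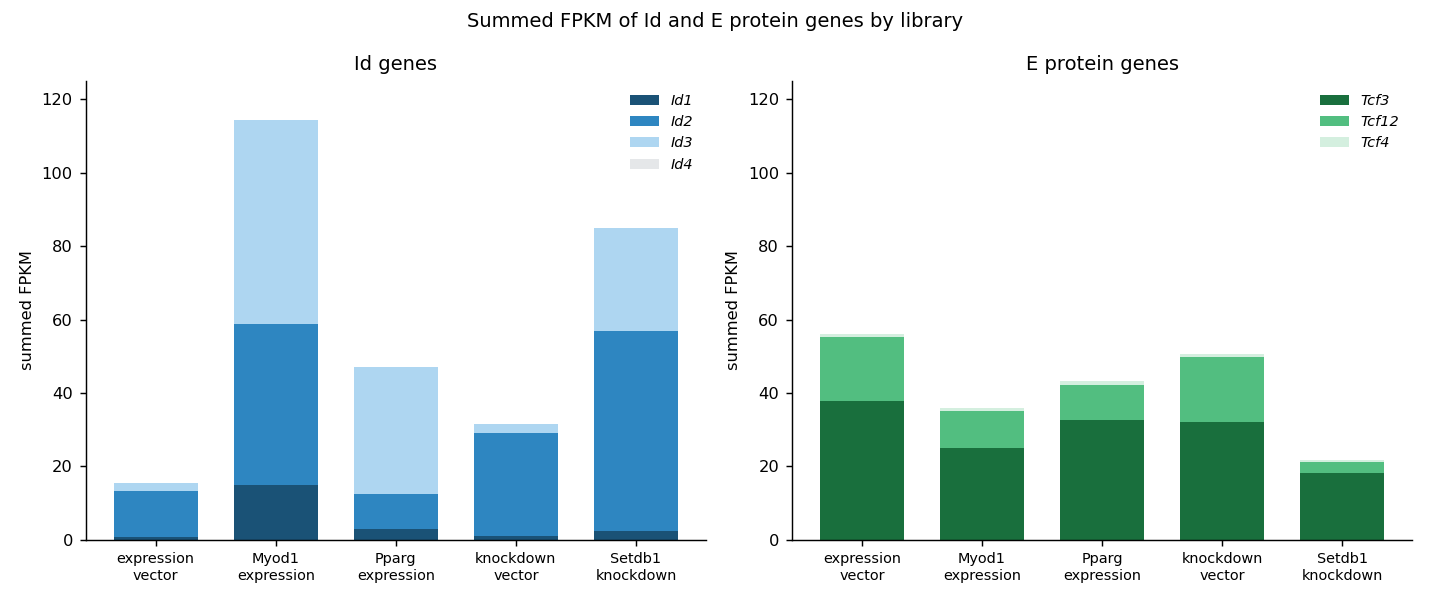
Summed FPKM of the Id genes (left) and the E protein genes (right) in each library, stacked by gene on the same axis. Per listed gene length the Id sum was below the E protein sum in both controls and above it in the 3 treated libraries, at 1.09 times in Pparg cells.

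The genes whose pattern over the 5 libraries was nearest to that of a member were found by Euclidean distance of log2(FPKM + 1), each gene centred on its own mean. For Id3 they were Sod3, the extracellular superoxide dismutase (distance 0.66), Btg2, an antiproliferative gene (0.92), and Hist1h4h, a histone gene (1.44). Sod3 had an FPKM of 42.6, 33.4 and 1.15 in Myod1 cells, Pparg cells and the empty expression vector control, and 17.8 and 2.78 in Setdb1 knockdown cells and the empty knockdown vector control. For Hes6 they were Aif1l (0.16), Fn3k (0.21) and Slc17a7 (0.30), and Aif1l stood at 83.9 in Myod1 cells against 5.61 to 9.28 elsewhere. For Tcf12 they were Ldlrad3 (0.21), Kat6a (0.26) and Tfrc, the transferrin receptor (0.34). For Id1 they were Fgf21 (0.15), 0610009L18Rik (0.39) and AI464131 (0.43), for Id2 they included Gm10231 (0.33) and Gm10051 (0.42), and for Hes1 Plppr2 (0.10) and Crebl2 (0.16). Among the members themselves Tcf3 and Tcf4 were nearest (0.45), then Hes6 and Id1 (0.75), while Id3 and Tcf12 were farthest apart (5.34).

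The class II bHLH genes, whose products are partners of E proteins, were mostly low in these cells, as were most genes in the table. Of 42 such genes, 38 stayed under an FPKM of 1 in all 5 libraries and 24 had no reads in any. Of all 54699 genes, 12842 reached an FPKM of 1 in at least 1 library. Myod1 and Myog (FPKM 948.4 from 22295 reads) were present in the Myod1 library and had 0 reads elsewhere. Tal1, a factor of blood and vessel development, had 6 reads in Setdb1 knockdown cells (FPKM 0.0740) against 75 in their control (1.02), and 21 to 49 reads in the other 3 libraries. Atoh8, a bHLH factor, had an FPKM of 25.4 from 1001 reads in Myod1 cells and 14.7 from 705 reads in Pparg cells, against 0.0488 from 2 reads in their control. Those ratios, 519.99 (interval 144 to 4300) and 300.4 (82.9 to 2486), rest on the 2 control reads, and Atoh8 had 43 reads and an FPKM of 1.03 in the other control. With Setdb1 knockdown Atoh8 stood at 2.39, a ratio of 2.33 (interval 1.63 to 3.40) to its own control. On the log2(FPKM + 1) scale that difference was 0.74, short of the limit, and it was 1.69 against the other control.

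The BMP and Smad list covers genes that act upstream of the Id genes. Of 24 compared, Myod1 cells had 1 at least 2-fold higher and 3 lower, Pparg cells 0 either way, and Setdb1 knockdown cells 3 higher and 2 lower. Over all genes the shares higher and lower were 14% and 7.55% in Myod1 cells, 4.22% and 2.3% in Pparg cells, and 9.34% and 10.3% for Setdb1 knockdown. The median log2 differences of the list were -0.30, -0.14 and 0.04. With Myod1 expression the BMP antagonist Chrd had 284 reads against 3 (ratio 98.4, interval 33.3 to 480) and the type I receptor Acvrl1 stood at an FPKM of 5.41 against 21.1, with Fstl1 (log2 difference -1.79) and Gdf11 (-1.22) also lower. Against the other control Fstl1 (-0.85) and Gdf11 (-0.66) were under 2-fold. With Setdb1 knockdown the procollagen protease Bmp1 was at 21.5 against 3.18 and the antagonist Dand5 at 6.41 against 1.55, and the type I receptor Bmpr1a at 1.51 against 5.998 and Twsg1 at 4.68 against 13.1. Twsg1 was just under 2-fold (-0.99) against the other control.

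The Notch list covers genes that act upstream of Hes1 and Hey1. Of 28 compared, Myod1 cells had 2 higher and 3 lower, Pparg cells 1 and 1, and Setdb1 knockdown cells 4 and 1, with medians of -0.02, -0.02 and 0.08. The shares of all genes higher and lower were 14% and 7.55%, 4.22% and 2.3%, and 9.34% and 10.3%, in the same order. The ligands Jag2 (FPKM 5.89 against 0.729) and Dll1 (171 reads against 3, ratio 59.2, interval 19.9 to 290.0) were higher in Myod1 cells, and the sheddase Adam10 (-1.17) and the gamma-secretase subunit Aph1c (-1.12) lower. The receptor Notch3 was at 3.29 against 0.586 in Pparg cells, and the protease Psen2 at 26.7 against 66.5, a log2 difference of -1.29 that was -0.91 against the other control. Psen2 was lower in Myod1 cells too, at 30.1, a log2 difference of -1.12 that was -0.74 against the other control. With Setdb1 knockdown Dtx3 (FPKM 47.99 against 11.9), Mib2 (17.9 against 5.66) and Numbl (8.69 against 2.52) were higher and the ubiquitin ligase Itch (-1.22) lower, and against the other control Mib2 had a log2 difference of 0.51 and Numbl of 0.76.

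The other Hes and Hey genes stayed low. Hes2, Hes3, Hes5, Hes7, Hey2, Heyl and Helt did not exceed an FPKM of 0.461 in any library. Of the 6 compared genes in the list of other Hes and Hey relatives with Groucho corepressors, 1 was called, Bhlhe40, a bHLH repressor of the clock and hypoxia responses. It was lower in Myod1 cells (15.1 against 33.8, log2 difference -1.12), where 7.55% of all genes were lower, and in Pparg cells (13.2, -1.30), where 2.3% were, but the empty knockdown vector control stood at 18.9, and against it the differences were -0.31 and -0.49. The Groucho genes Tle1, Tle3 and Tle4 had an FPKM of 2.90 to 9.56 over the 5 libraries. Tle2 stayed at 0.0288 to 0.330, and Tle6 was at 0.453 in Myod1 cells and 1.28 to 2.06 elsewhere.

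**Figure D5:**
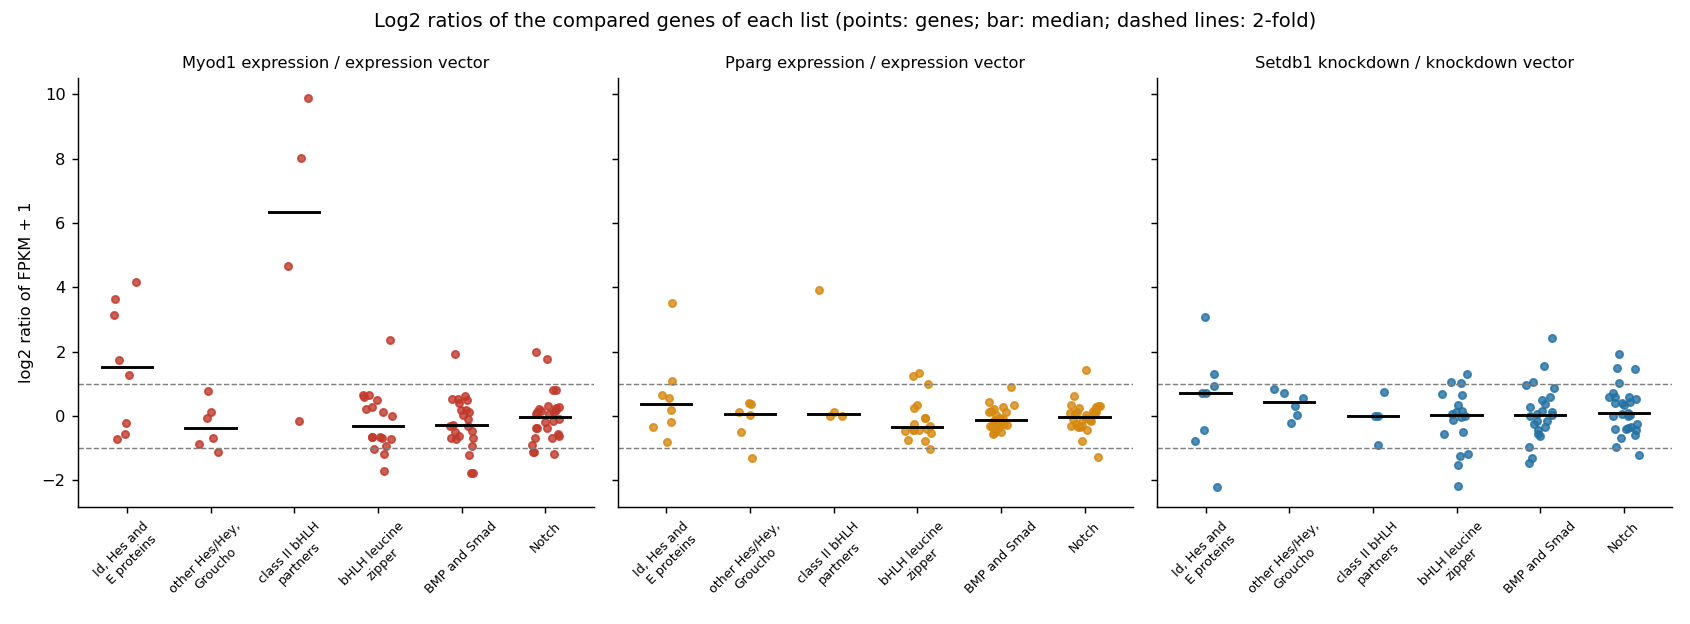
Log2 ratio of FPKM + 1 of the compared genes of 6 lists (x axis) in the 3 treatment comparisons (panels), 1 point per gene, with the list median as a bar and dashed lines at 2-fold. The BMP and Notch lists centre between -0.30 and 0.08, and the highest points of the class II list in Myod1 cells are Myog and the transgene Myod1.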

How the data were processed

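RNA from 5 cultures of B16F10 cells was compared, 1 library per group. The authors deposited 1 table of FPKM values per gene, with the gene length, symbol and position, and the submitters' processing notes name CASAVA, HISAT2, featureCounts 1.5.0-p3 and the build GRCm38. The scaling, the use of strand and the counting of shared reads are not given in the sources used here. FPKM times length came out as whole multiples of 1 step for 100% of values above 0 in each library (tolerance 0.01 reads), which gave the reads per gene. The size by which the authors divided was 0.859 times these reads in the Myod1 library and 0.976 to 1.10 times in the others, so the values were already scaled between libraries. All 10 genes have the same position in GENCODE M21, from which exons, GC content (known for 98.7% of the genes compared) and transcript lengths were taken. Promoter windows are from RefSeq (GRCm38.p6).

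Log2 ratios are of FPKM + 1, over genes that any library put at an FPKM of 1 or more, and a difference was counted at 2-fold. Intervals are exact Clopper-Pearson at 95%, and reads without molecular identifiers are not independent molecules, so they cover counting error only. With 1 library per group no test was possible. All 10 members are named. From 5 lists of 153 entries (2 not in the table under their symbol), up to 4 genes per comparison with the largest difference of at least 2-fold are named, and for each member at least 2-fold apart in a treatment comparison the 3 genes nearest in pattern, of which 2 are not reported here. Levels of further list and marker genes were picked after their values were seen. The members and lists were chosen with earlier results of these data known. The reading of reads and the 2-fold calls were tested on simulated data. Python 3.11.15, pandas 2.3.3, scipy 1.17.1 and matplotlib 3.10.9 were used.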

Additional observations from a re-analysis of the deposited data

How the results depend on the processing

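Over 184 alternative values of the log2 ratios of the 8 compared genes (pseudocount 0.1, division by the FPKM sum, scaling to the 75th percentile, centring on the median, the other control, GC trend removed), 179 kept their direction, and the 5 that did not were of Tcf3, Tcf4 or Tcf12 at under 2-fold. Division by the FPKM sum took the median of all genes in the Myod1 comparison from 0.02 to -0.26 and the 75th percentile to -0.11, and no member changed direction under either. Counts of members moved by over 1.5 times as follows. At a 4-fold limit 3, 1 and 1 genes were higher in Myod1 cells, Pparg expression and Setdb1 knockdown, and 0 between the controls. Division by the FPKM sum added 1 lower gene in Myod1 cells. With the other control 1 gene was higher and 1 lower in Pparg cells. With Setdb1 knockdown 2 genes were lower with the other control, with a pseudocount of 0.1 and with the GC trend removed. A mean FPKM of at least 1 gave 2335, 678, 2285 and 245 genes past 2-fold in the 3 treatment comparisons and between the controls, against 2768, 837, 2526 and 343. Using no filter could not change these counts, since with a pseudocount of 1 a gene under an FPKM of 1 everywhere cannot reach 2-fold. The ratio of Id to E protein sums was tried with 2 other lengths, chosen after seeing the data. In the Myod1, Pparg, expression vector, Setdb1 and knockdown vector libraries it was 0.815, 0.287, 0.0787, 1.42 and 0.172 in reads, and 2.40, 0.883, 0.197, 3.25 and 0.432 per base of the longest coding transcript. At that length the Id sum was below the E protein sum in Pparg cells. Depth limits Id4, Hey1 and, in the controls, Id1 and Hes1, with 35 reads or fewer. No paired analysis was possible because each group has 1 library.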

Other observations

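The bHLH leucine zipper genes, many of which bind E-boxes without E proteins, were read from the same libraries. Of 18 compared, Myod1 cells had 1 at least 2-fold higher and 3 lower, Pparg cells 2 and 1, and Setdb1 knockdown cells 3 and 4, with median log2 differences of -0.32, -0.35 and 0.02. Over all genes 14% were higher and 7.55% lower, 4.22% and 2.3%, and 9.34% and 10.3%, in the same order. Mitf, the melanocyte regulator, had an FPKM of 8.03 in Myod1 cells against 28.7, and 13.7 in Setdb1 knockdown cells against 41.6. Myc stood at 9.31 in Setdb1 knockdown cells against 23.3, a log2 difference of -1.24, but at -0.59 against the other control. Of its antagonists, Mxd4 was higher in Pparg cells (24.1 against 8.85) and in Setdb1 knockdown cells (17.9 against 6.63, a log2 difference of 1.31 that was 0.94 against the other control), and Mxd3 was lower in Setdb1 knockdown cells (2.33 against 14.1). Mycl had 270 reads in Myod1 cells and 107 in Pparg cells against 1 read in their control, ratios of 281 (interval 49.9 to 11120) and 91.2 (16.02 to 3635). Mxi1 (FPKM 5.40 in Myod1 cells and 6.13 in Pparg cells against 13.6) and Mnt (8.07 in Myod1 cells against 17.4) were lower. But Mxi1 stood at 6.15 in the empty knockdown vector control, and against it the differences of Mxi1 were -0.16 and -0.00 and that of Mnt -0.29. In Setdb1 knockdown cells Mnt was higher (21.7 against 10.1), a log2 difference of 1.03 that was 0.30 against the other control.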
